A study of Mus musculus with 6 samples.

Results

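Hyaluronan genes were followed in sorted stromal cells of the mouse colon. The members were the genes listed under the symbols Has1, Has2, Has3, Hyal1, Hyal2, Cd44, Tnfaip6 and Vcan, which made 8 of the 24346 genes in each expression table. All 8 were found. They were listed by their known function, with earlier results of these data known, and fall into 3 synthases, 2 hyaluronidases and 3 proteins that bind hyaluronan.

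The floxed group consisted of 3 mice carrying 2 loxP-flanked Il10ra alleles (Il10ra flox/flox) without cre, and the Pdgfra-cre group consisted of 3 mice carrying the same alleles and a cre recombinase driven by Pdgfra. All 6 mice were 12 weeks old and had been given 1% dextran sulfate sodium (DSS), which injures the colonic epithelium, so no untreated colon was measured. Live cells with Podoplanin and without CD45, CD31 or EpCAM were sorted from the whole colon, 1 RNA library per mouse. The libraries are named here by the mouse numbers of the labels, which are 8, 9 and 43 for floxed and 13, 23 and 25 for Pdgfra-cre. The cre acts only in cells that express Pdgfra or descend from such cells, and because the floxed mice had no cre, carrying cre and losing Il10ra cannot be told apart. Il10ra, the targeted gene, was listed at 0 in 5 of 6 libraries and at 0.42 FPKM in floxed 43, so its deletion could not be read from these tables.

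Hyaluronan is a long, unsulfated sugar chain made at the plasma membrane by the synthases HAS1, HAS2 and HAS3 from UDP-glucuronic acid and UDP-N-acetylglucosamine. Hyaluronidases cut the chain, HYAL2 at the cell surface and HYAL1 in lysosomes. Around the cell the chain is organised by binding proteins: CD44 is its main surface receptor, versican (Vcan) is a large proteoglycan that attaches to it, and TSG-6 (Tnfaip6) is an inflammation-induced protein that transfers heavy chains of inter-alpha-inhibitor onto it. In the inflamed intestine hyaluronan from stromal cells is known to form cables that leukocytes adhere to.

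Levels are given as FPKM (fragments scaled to transcript length in kilobases and to 1e6 mapped fragments), which allows different genes to be compared per length. Between 11188 and 11358 genes reached 1 FPKM in a library, and low values placed 1 read per kilobase at roughly 0.113 to 0.134 FPKM. Pdpn, the gene of the sort marker Podoplanin, lay between 78.3 and 123.5 FPKM, and all 8 fibroblast markers examined were expressed. Pdgfra itself was 188 ± 11.0 FPKM in floxed and 149.6 ± 26.9 in Pdgfra-cre (SD, n = 3 each). Ptprc, Pecam1 and Epcam did not exceed 1.11 FPKM. Pdgfra-cre 23 resembled the rest least, with a mean correlation of 0.950 against 0.960 to 0.970. The log2 fold changes of the tested members are given with and without that library. In these bulk samples, fewer cells of a type and less RNA per cell cannot be told apart.

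Has1 was the dominant synthase gene of these cells and its level was higher in every Pdgfra-cre library than in any floxed library. Has1 (chromosome 17, 17843323 to 17855205, mm10) was 909.8, 790.8 and 821.8 FPKM in floxed 8, 9 and 43. It was 1034, 1275 and 1082 FPKM in Pdgfra-cre 13, 23 and 25. The groups did not overlap, and Pdgfra-cre 23 was the highest. The means were 841 ± 61.8 and 1130.0 ± 127.6 FPKM (SD, n = 3 each), a ratio of 1.34. The difference did not pass the test across all genes, with a log2 fold change of 0.42 ± 0.12 (SE) and an adjusted p of 0.243 in limma. By FPKM, Has1 ranked between 45 and 77 of all 24346 genes in the 6 libraries, counted from the highest.

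The stretch before the Has1 start is shown because Has1 was the most abundant member. It covers the 233 bases upstream of both the RefSeq and the GENCODE start (GRCm38.p6, minus strand, chr17:17855206-17855438), printed 5′ to 3′, with sequence from RefSeq. Matches to the motifs searched would be in capitals.
Has1: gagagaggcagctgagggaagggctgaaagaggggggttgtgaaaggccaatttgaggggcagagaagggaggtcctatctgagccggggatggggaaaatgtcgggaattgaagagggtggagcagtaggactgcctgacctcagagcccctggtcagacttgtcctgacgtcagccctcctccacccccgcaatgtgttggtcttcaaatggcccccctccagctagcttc
In the whole RefSeq window, 250 bases before to 50 after the start, no match was found on either strand to TTCNNNGAA (a STAT site, GAS), GAAANNGAAA (an interferon-stimulated response element, ISRE), TGANTCA (AP-1), TATAAA or the NF-kB consensus. Of 32851 windows of this length, 8.30% held the GAS letters, 3.44% the ISRE letters, 7.81% the AP-1 letters, 13.6% TATAAA and 8.46% the NF-kB consensus. The absence of these letters says only that they are not in this window.

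Has2, the synthase gene that the embryonic heart requires, was expressed far below Has1 and its values lay in the opposite order between genotypes. Has2 (chromosome 15, 56665627 to 56694539) was 18.9, 19.4 and 22.1 FPKM in floxed 8, 9 and 43. It was 18.5, 12.8 and 14.1 FPKM in Pdgfra-cre 13, 23 and 25. The groups did not overlap, but Pdgfra-cre 13 lay just under floxed 8. The means were 20.1 ± 1.73 and 15.1 ± 2.99 FPKM (SD, n = 3 each), and with a log2 fold change of -0.40 ± 0.17 (SE) the gene missed the threshold (adjusted p = 0.431, limma). Without Pdgfra-cre 23, its lowest library, the log2 fold change was -0.30 (adjusted p = 0.700, limma). The antisense gene Has2os overlaps Has2 and reached 4.18 FPKM at most, and without strand information reads of the pair cannot be separated.

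Has3 was close to absent. It was 0.0367 FPKM in floxed 8 and 0.129 in Pdgfra-cre 13, and was listed at 0 in the other 4 libraries. By the rough depth above these values stood for about 1.85 and 6.47 reads of its longest transcript. Has3 (chromosome 8, 106870242 to 106884566) overlaps Chtf8 on the other strand, so even these reads may not be its own. It was the 1 member below the filter for the fit, and its groups were compared by an exact permutation test (two-sided p = 1, with 0.1 the lowest value such a design can give).

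Together the synthases were almost wholly Has1 at the RNA level. Has1 made up 97.4% to 98.0% of the summed synthase FPKM in floxed and 98.2% to 99.0% in Pdgfra-cre. The ratio of Has1 to Has2 FPKM was 48.2, 40.8 and 37.2 in floxed 8, 9 and 43. It was 55.9, 99.4 and 76.8 in Pdgfra-cre 13, 23 and 25. All 3 Pdgfra-cre ratios lay above the floxed ones, with 23 the highest and 13 nearest to the floxed range. The ratio was formed from 2 members with their values known, so its order follows from theirs, and it was not tested.

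**Figure D1:**
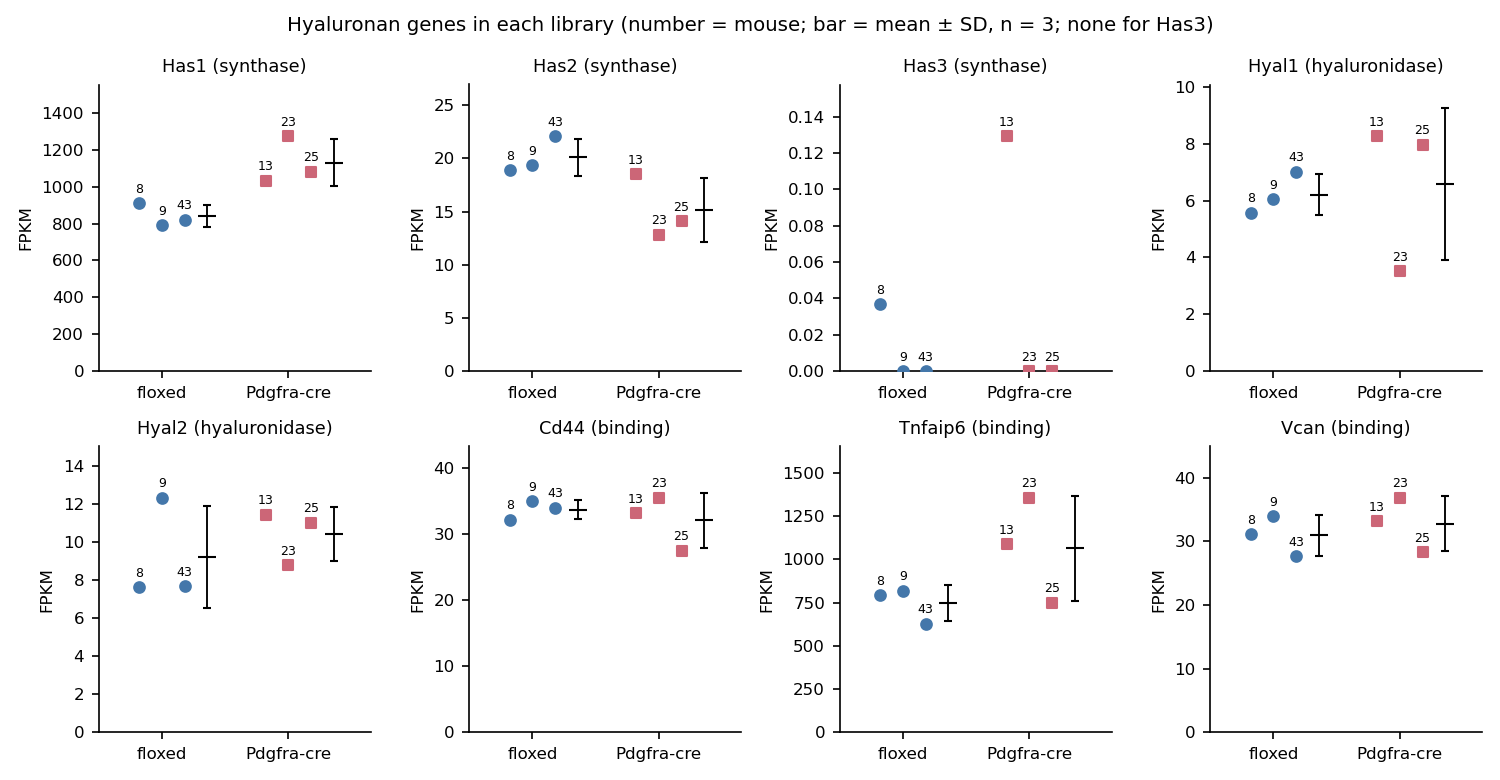
FPKM of the 8 hyaluronan genes (vertical axes, 1 panel per gene) in the 3 floxed libraries (circles) and the 3 Pdgfra-cre libraries (squares), labelled by mouse number, with group mean ± SD except for Has3. Has1 lies higher (1034 to 1275 against 790.8 to 909.8 FPKM) and Has2 lower (12.8 to 18.5 against 18.9 to 22.1 FPKM) in Pdgfra-cre without overlap, while the other genes overlap.

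The hyaluronidase genes were expressed at a low level and their groups overlapped. Hyal2, whose product is anchored at the cell surface, was 7.63, 12.4 and 7.70 FPKM in floxed 8, 9 and 43. It was 11.5, 8.80 and 11.0 FPKM in Pdgfra-cre 13, 23 and 25. The highest value was in floxed 9, and all 3 Pdgfra-cre libraries lay above the other two floxed ones. Hyal2 (chromosome 9, 107567945 to 107572779) had a log2 fold change of 0.18 ± 0.22 (SE; adjusted p = 0.839, limma). Without floxed 9 it was 0.39 with groups that did not overlap (adjusted p = 0.554), and it was 0.076 without floxed 8, 0.082 without floxed 43, 0.12 without Pdgfra-cre 13 and 0.29 without Pdgfra-cre 23. Its RefSeq promoter window held the 1 NF-kB match among the members, GGGAATCCCC, beginning 238 bases before the RefSeq start. That window (107568913 to 107569212) lies inside the GENCODE gene given above, so the match is not upstream of the GENCODE start.

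Hyal1, which encodes the lysosomal enzyme, was the most variable of the expressed members but Tnfaip6. It was 5.57, 6.06 and 7.02 FPKM in floxed 8, 9 and 43. It was 8.28, 3.51 and 7.98 FPKM in Pdgfra-cre 13, 23 and 25. Pdgfra-cre 23 was the lowest of the 6 libraries and the other Pdgfra-cre libraries were the highest. The log2 fold change was 0.0052 ± 0.29 (SE; adjusted p = 0.998, limma), and without Pdgfra-cre 23 it was 0.34 with groups that did not overlap (adjusted p = 0.697). Hyal1 (chromosome 9, 107576927 to 107581710) overlaps Hyal3 on the same strand. Hyal3 did not exceed 0.772 FPKM and was listed at 0 in floxed 43 and Pdgfra-cre 13 and 23.

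Tnfaip6 was similar to Has1 in level per length of transcript. Tnfaip6 (chromosome 2, 52038009 to 52056686) was 794.0, 818 and 629 FPKM in floxed 8, 9 and 43. It was 1087, 1356 and 750.1 FPKM in Pdgfra-cre 13, 23 and 25. Pdgfra-cre 13 and 23 lay above all floxed libraries, but Pdgfra-cre 25 lay within the floxed range. The means were 747 ± 103.3 and 1064 ± 304 FPKM (SD, n = 3 each), and with a log2 fold change of 0.48 ± 0.21 (SE) the gene missed the threshold (adjusted p = 0.430, limma). Single libraries moved this value by more than 1.5 times in one case: it was 0.28 without Pdgfra-cre 23 (adjusted p = 0.723), and 0.71 without Pdgfra-cre 25 (adjusted p = 0.131).

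The stretch before the Tnfaip6 start is shown because this gene was the other highly expressed member. It covers the 146 bases upstream of both annotated starts (GRCm38.p6, plus strand, chr2:52037863-52038008), with sequence from RefSeq. Capitals mark, in order, a match to TTCNNNGAA and a match to TGANTCA.
Tnfaip6: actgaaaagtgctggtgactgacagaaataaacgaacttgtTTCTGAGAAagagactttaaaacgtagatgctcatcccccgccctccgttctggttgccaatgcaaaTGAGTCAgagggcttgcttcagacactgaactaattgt
The matches began 209 and 142 bases before the RefSeq start. Of the 6 members with a RefSeq window, Tnfaip6 was the 1 with a GAS or AP-1 match, and none held the ISRE letters or TATAAA. Letters that match a motif do not show that a factor binds there. Has2 and Has3 were not analysed in this way.

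Cd44 and Vcan, the receptor and the proteoglycan, were the steadiest members. Cd44 (chromosome 2, 102811141 to 102901665) was 32.2, 35.0 and 34.0 FPKM in floxed 8, 9 and 43. It was 33.2, 35.5 and 27.5 FPKM in Pdgfra-cre 13, 23 and 25. Pdgfra-cre 25 was the lowest, and the other 5 libraries lay between 32.2 and 35.5 FPKM. The coefficient of variation over the 6 libraries was 8.80%, and the log2 fold change was -0.077 ± 0.14 (SE; adjusted p = 0.898, limma).

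Vcan (chromosome 13, 89655312 to 89742509) was 31.2, 34.0 and 27.7 FPKM in floxed 8, 9 and 43. It was 33.2, 36.9 and 28.3 FPKM in Pdgfra-cre 13, 23 and 25. Both groups spanned much the same range. The coefficient of variation was 11.1%, and the log2 fold change was 0.077 ± 0.15 (SE; adjusted p = 0.901, limma). Both genes are made as several splice forms, which a value per gene adds together.

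Of the 7 members tested, 0 passed an adjusted p of 0.05 in limma, as did 0.0% of all 11429 genes tested. At an unadjusted p under 0.05 there were 3 members (Has1 and Tnfaip6 with higher and Has2 with lower values in Pdgfra-cre), beside 11.0% of all genes. Without Pdgfra-cre 23 the unadjusted p in limma was 0.017 for Has1, 0.128 for Has2 and 0.147 for Tnfaip6. In that fit 1055 of the 11429 genes had an unadjusted p under 0.05. The groups did not overlap in 2 members, 1 in each direction, beside 16.4% of all genes (8.07% higher and 8.29% lower). With 7 genes these counts do not set the members apart from the rest. Their median log2 fold change was 0.077, beside 0.0012 over all genes tested. By mean level the order was Has1, Tnfaip6, Cd44, Vcan, Has2, Hyal2, Hyal1 and Has3. Has1 and Tnfaip6 differed by less than their spread over libraries, as did Cd44 and Vcan, and the ranges of Hyal2 and Hyal1 overlapped. Tnfaip6 was 22.7 to 36.8 times Vcan in each library.

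Genes of enzymes that lead to the sugar nucleotides of hyaluronan, together with the gene of a nucleotide sugar transporter, formed a list of 8, and 0 of them passed the test. All 8 were tested and all 8 had a log2 fold change over 0, from 0.029 for Gnpnat1 to 0.62 for Gfpt2, with a median of 0.35 beside 0.0012 over all genes. After rescaling to TPM, and also without floxed 9, 7 of 8 lay above 0. The groups did not overlap in 4 of 8, all higher in Pdgfra-cre, beside 8.07% of all genes higher without overlap. These enzymes also supply other glycans and proteoglycans. Over all 32 tested genes of the lists beside the members, 0 passed, 8 had an unadjusted p under 0.05 (7 higher, 1 lower) beside 11.0% of all genes, and 8 did not overlap (7 higher, 1 lower) beside 16.4%.

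Gfpt2, which encodes a form of the rate-limiting enzyme of the hexosamine pathway that leads to UDP-N-acetylglucosamine, was the most abundant of them. It was 716, 674 and 569.7 FPKM in floxed 8, 9 and 43, and 963, 1096 and 948 in Pdgfra-cre 13, 23 and 25. Its log2 fold change was 0.62 ± 0.12 (SE; adjusted p = 0.156, limma). The gap between the groups was wider than the range within either group.

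Ugdh encodes the dehydrogenase that makes UDP-glucuronic acid. It was 359, 297 and 323 FPKM in floxed 8, 9 and 43, and 526, 434 and 436 in Pdgfra-cre 13, 23 and 25. Its log2 fold change was 0.51 ± 0.12 (SE; adjusted p = 0.191, limma). Pdgfra-cre 13 was the highest library here, not 23 as for Has1.

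Uap1, which encodes the enzyme of the last step to UDP-N-acetylglucosamine, was 167.8, 194.9 and 135.3 FPKM in floxed 8, 9 and 43. It was 269.7, 225.5 and 204.8 FPKM in Pdgfra-cre 13, 23 and 25, with a log2 fold change of 0.50 ± 0.16 (SE; adjusted p = 0.277, limma). Ugp2, which makes UDP-glucose, was 98.0 ± 10.5 and 113.5 ± 1.93 FPKM (SD, n = 3 each; adjusted p = 0.560, limma), and its groups were separated by little. The other 4, Pgm3, Gfpt1, Gnpnat1 and the transporter gene Slc35d1, overlapped between genotypes with log2 fold changes of 0.029 to 0.50. Without Pdgfra-cre 23 the median log2 fold change of the precursor supply genes was 0.37, beside 0.0010 over all genes. Leaving out a library cannot make separate groups overlap, so it does not test their separation.

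**Figure D2:**
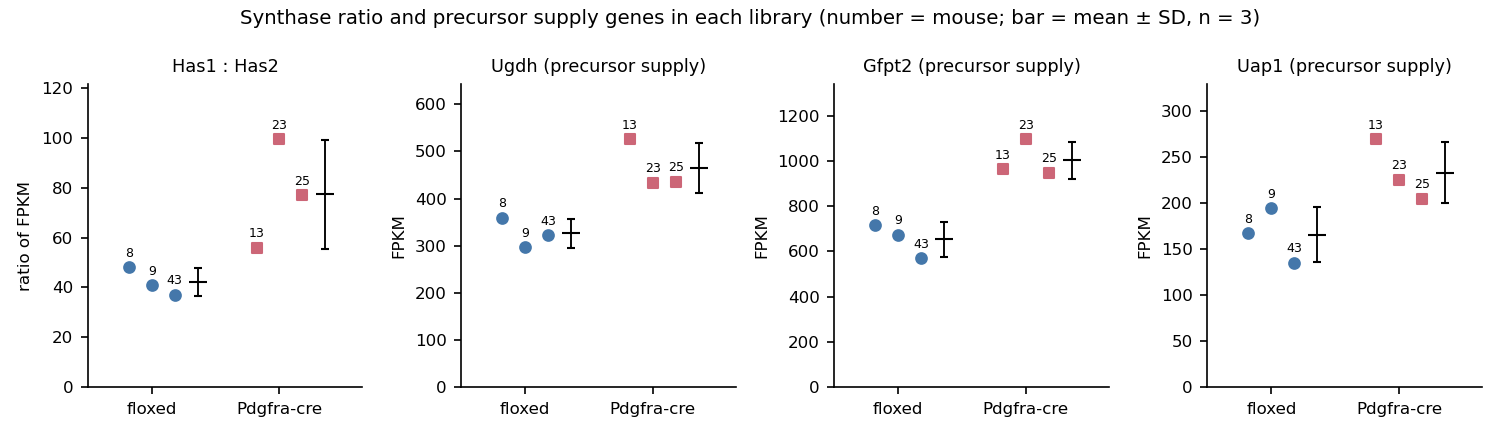
Ratio of Has1 to Has2 FPKM (first panel, vertical axis a ratio) and FPKM of Ugdh, Gfpt2 and Uap1 (vertical axes, FPKM) in the floxed (circles) and Pdgfra-cre (squares) libraries, with group mean ± SD. In all 4 panels every Pdgfra-cre library lies above every floxed library, the ratio at 55.9 to 99.4 against 37.2 to 48.2. The order of the ratio follows from that of Has1 and Has2. Ugp2 and the overlapping supply genes Pgm3, Gfpt1, Gnpnat1 and Slc35d1 are not shown.

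Genes of the remaining breakdown route overlapped between genotypes where they were tested. The list held 10 such genes, of which 4 were tested, all with a log2 fold change just below 0 (median -0.061), and 0 without overlap. Hexa, a lysosomal hexosaminidase subunit that removes end sugars from hyaluronan fragments, was the most abundant at 194.1 ± 15.9 and 187.8 ± 15.8 FPKM (SD, n = 3 each; adjusted p = 0.924, limma). Tmem2 (also called Cemip2), which encodes a cell-surface protein that degrades hyaluronan, was 1.15 to 1.52 FPKM in floxed and 0.822 to 2.31 in Pdgfra-cre (adjusted p = 0.969, limma). Cemip, whose product takes part in hyaluronan breakdown in skin fibroblasts, did not exceed 0.924 FPKM, and Hyal4 and Hyal5 were listed at 0 in all 6 libraries.

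Among 15 further genes for hyaluronan binding and crosslinking 6 were tested and 0 passed, with 4 above 0, 2 below and a median log2 fold change of 0.29. Ptx3, a pentraxin that helps to crosslink hyaluronan with TSG-6 and inter-alpha-inhibitor heavy chains, was the most abundant. It was 68.3, 111.1 and 34.0 FPKM in floxed 8, 9 and 43, and 192.1, 122.9 and 98.5 in Pdgfra-cre 13, 23 and 25. Floxed 9 lay above Pdgfra-cre 25, so the groups overlapped (log2 fold change 1.04 ± 0.38 SE; adjusted p = 0.344, limma).

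Hapln1, the link protein gene that stabilises the bond between hyaluronan and versican, was chosen here after its values were seen. It was 4.21, 4.05 and 7.95 FPKM in floxed 8, 9 and 43, and 1.95, 0.576 and 1.33 in Pdgfra-cre 13, 23 and 25. Every Pdgfra-cre library was below every floxed library, with a log2 fold change of -1.48 ± 0.32 (SE; adjusted p = 0.169, limma). Itih2, a heavy chain gene of inter-alpha-inhibitor that was also chosen after its values were seen, had the opposite order at 0.284 to 1.19 and 1.49 to 1.77 FPKM. Ambp, which encodes the light chain bikunin, was listed at 0 in all 6 libraries.

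Of 7 other receptor genes, 3 were tested and 0 were free of overlap. Layn, which encodes the hyaluronan receptor layilin, was the most abundant with 24.0 ± 1.36 FPKM in the floxed and 21.0 ± 2.50 in the Pdgfra-cre group (SD over 3 mice; adjusted p = 0.711, limma). Lyve1, Stab1 and Stab2, receptors of lymphatic and sinusoidal endothelium, did not exceed 1.13 FPKM. Among versican-cleaving proteases and versican partners, 8 of 9 were tested with a median of 0.044, and 1 did not overlap. That gene, the aggrecanase gene Adamts5, was 9.17 ± 2.27 FPKM in the floxed and 13.8 ± 2.68 in the Pdgfra-cre group (SD over 3 mice; adjusted p = 0.391, limma), while the most abundant, Fbln1, was 525 ± 30.8 and 541 ± 101.1. Of the 3 genes that link CD44 to actin, Msn was nearly level at 97.1 ± 0.797 and 100.6 ± 4.46 FPKM, and Ezr was 17.4 ± 2.23 and 28.0 ± 6.18 without overlap (SD, n = 3 each; adjusted p = 0.243, limma).

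**Figure D3:**
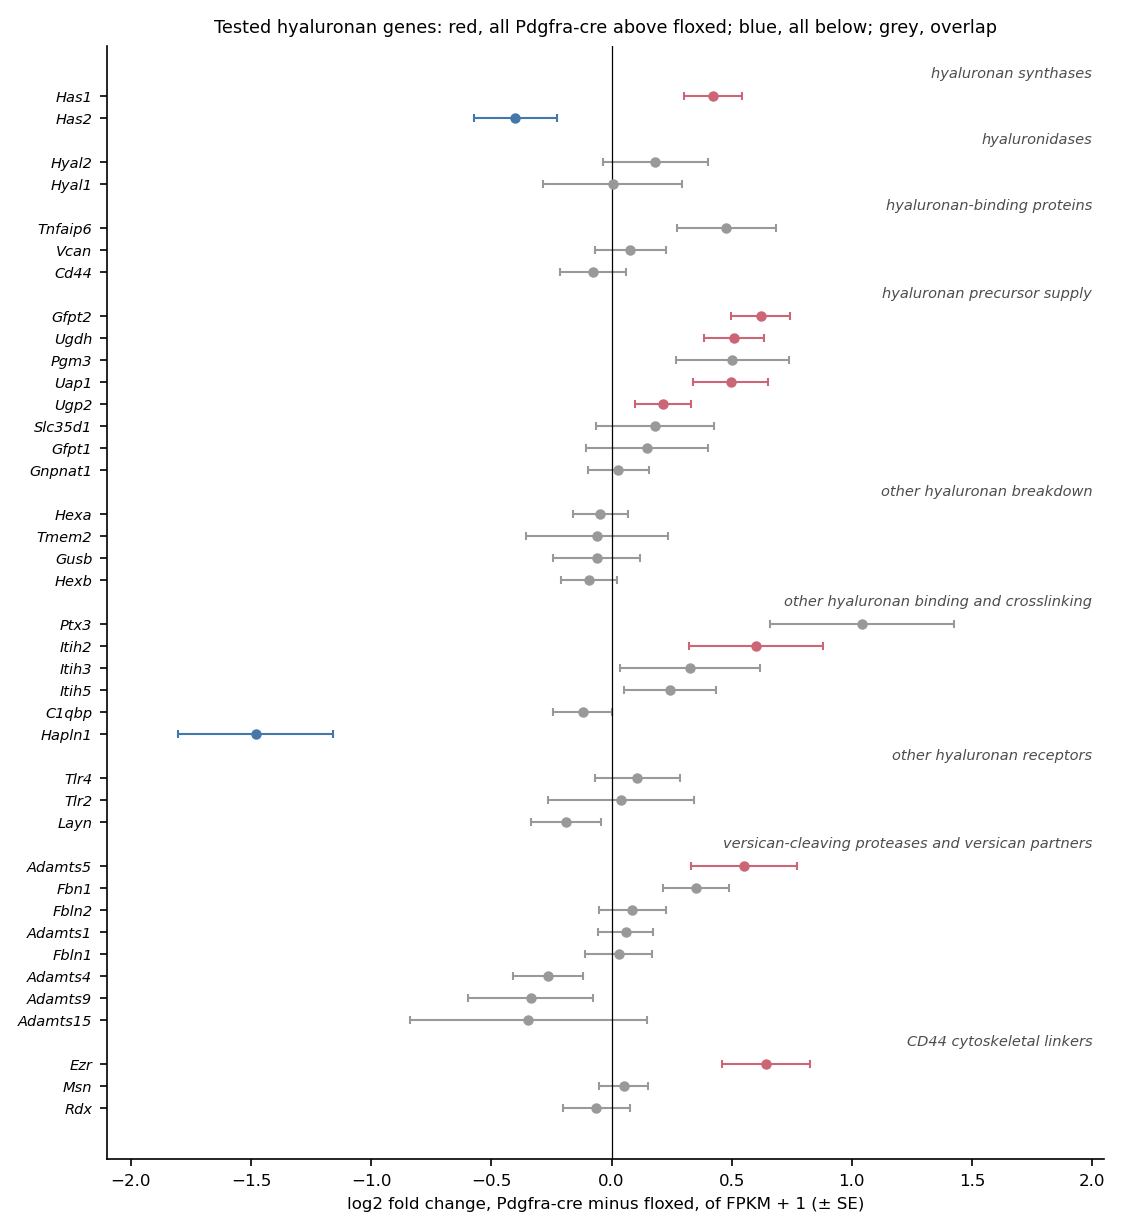
Log2 fold change of FPKM + 1, Pdgfra-cre minus floxed, with SE (horizontal axis) for the 7 tested members and the 32 tested genes of the other hyaluronan lists, grouped by role. Red points (every Pdgfra-cre library above every floxed one) include Has1, Gfpt2, Ugdh and Uap1, blue points (every one below) are Has2 and Hapln1, and 0 genes passed the adjusted threshold.

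Markers of several cell types moved with the genotypes and with Pdgfra-cre 23, and their part in the values above was not tested. All 10 markers of CD34-positive adventitial fibroblasts were expressed, and their summed FPKM was 4024 to 5018 in floxed and 5826 to 9971 in Pdgfra-cre, highest in 23 as for Has1. Ly6a and Ly6c1 made up much of that sum (4476 and 1982 FPKM in 23), and Dpp4 was lowest in 23 at 7.56 FPKM. Cd34, Pi16, Ly6a, Cd81, Dpt and Ackr3 were higher in Pdgfra-cre without overlap, while Ly6c1, Dpp4, Grem1 and Cd55 overlapped between groups. All 10 markers of PDGFRA-high subepithelial fibroblasts were expressed, with sums of 342 to 499 and 173.2 to 270.2, much of them from F3 and Bmp5. F3, Sox6, Bmp5, Bmp7 and Nrg1 were lower in Pdgfra-cre without overlap, while Wnt5a, Foxl1, Dll1, Bmp2 and Fgf9 overlapped between groups. All 10 smooth muscle markers were expressed, with sums of 831 to 862 in floxed and 200.8 to 502 in Pdgfra-cre, lowest in 23. The sum of 8 pericyte markers, of which 6 passed the filter, was 88.2 to 99.1 and 58.6 to 76.3, mostly from Kcnj8 and Pdgfrb. Kcnj8 and Mcam were lower in Pdgfra-cre without overlap, while Pdgfrb, Abcc9, Cspg4 and Rgs5 overlapped between groups. The pericyte markers Notch3 and Higd1b were near 0 in all 6 libraries, at 0.199 and 0.379 FPKM or lower.

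Mesothelial markers, of which 7 of 10 passed the filter, summed to 3.20 to 22.4 FPKM in floxed and 21.1 to 107.2 in Pdgfra-cre, highest in 23. These ranges overlapped, with floxed 9 above Pdgfra-cre 25, and Pdgfra-cre 13 was at 36.5. Msln, Upk3b and Krt18 were higher in Pdgfra-cre without overlap, while Upk1b, Wt1, Krt8 and Krt19 overlapped between groups. Mesothelial cells are a known source of hyaluronan, and how much of the Has1 level came from them was not tested. Without Pdgfra-cre 23 the log2 fold change of Has1 was 0.33 (adjusted p = 0.409, limma), beside 0.42 with that library included. Neutrophil markers, of which 3 of the 9 found passed the filter and Ltf was at 0, were again highest in 23. Their sums were 1.21 to 11.2 FPKM in floxed and 11.3 to 179.9 in Pdgfra-cre, with 18.9 in 13 and 11.3 in 25. The sums of the 10 macrophage markers overlapped (23.2 to 36.9 and 25.2 to 65.6), as did those of the 10 endothelial markers (38.1 to 49.2 and 37.8 to 50.2), which came mostly from Tek, with Cdh5 at 0. Epithelial markers, which share Krt8, Krt18 and Krt19 with the mesothelial list, overlapped too (1.48 to 16.1 and 8.25 to 43.9), as did lymphatic endothelial (1.66 to 3.74 and 1.10 to 1.95) and enteric glial ones (6.90 to 19.8 and 6.11 to 11.3).

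**Figure D4:**
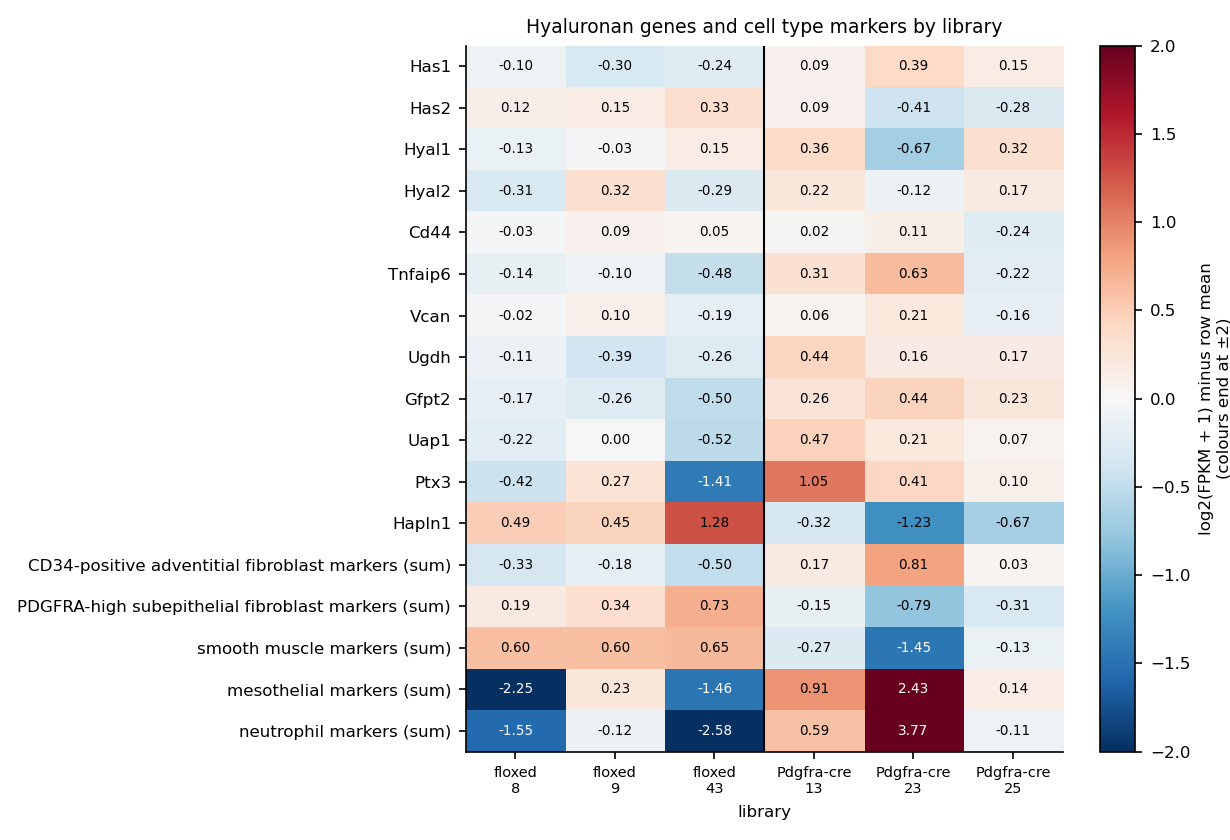
Values of log2(FPKM + 1) minus the mean of each row, for the 7 tested members, 5 related genes and the summed markers of 5 cell types (rows) in the 6 libraries (columns), with floxed to the left of the line. Has1, Tnfaip6 and the CD34-positive adventitial, mesothelial and neutrophil sums are highest in Pdgfra-cre 23 (Has1 1275 FPKM), where Has2, Hyal1 and the smooth muscle sum are lowest.

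Genes whose profile over the 6 libraries lay nearest to a member were sought among 7879 other genes with a mean of at least 5 FPKM. The measure was the root mean square difference between centred log2(FPKM + 1) values, and with 6 libraries of 2 genotypes it is a description. Nearest to Has1 were Hras (0.048), the fibril-associated collagen gene Col14a1 (0.054) and the dermatopontin gene Dpt (0.054), whereas the centred profile of Has1 itself had a root mean square of 0.24. Col14a1 was 169.2 ± 7.12 and 226.1 ± 19.4 FPKM and Dpt was 782 ± 18.8 and 1034 ± 99.0 (SD, n = 3 each), both without overlap. Near to Tnfaip6 were the cytokine gene Il6 (0.080) and Ifrd1 (0.084), against 0.37 for Tnfaip6 itself. Il6 was 267 ± 41.0 and 351 ± 83.8 FPKM, and like Tnfaip6 it was higher in Pdgfra-cre 13 and 23 and within the floxed range in 25. Nearest to Hyal2 were Manf (0.048), Pigs (0.052) and Lmbr1 (0.060), against 0.25 for Hyal2, and all 3 were highest or near highest in floxed 9 or Pdgfra-cre 13. Among the other members, Vcan was closest to Has1 (0.22) and Hyal1 was farthest (0.49). Vcan was only in place 1429 of the 7879 genes, and its 0.22 was little below the 0.24 of the Has1 profile itself.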

How the data were processed

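Total RNA of sorted cells was turned into full-length cDNA with a SMART-Seq kit and made into libraries by tagmentation, per the labels' protocols, which loses strand information. The authors deposited 1 table of FPKM per gene for each library. Per the submitters' processing notes the genome was mm10 and the tools were TopHat2 2.1.1, Bowtie2 2.2.8, SAMtools 0.1.18 and Cuffdiff 2.2.1. Options, annotation release and sequencing depth are not given in the sources used here, so depth was estimated, from the most frequent low value times transcript length in genes with 1 transcript.

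The hyaluronan genes and the other lists were chosen with earlier results of these data known. With R 4.3.3 and limma 3.58.1, log2(FPKM + 1) was fitted by genotype for the 11429 of 24346 genes with at least 1 FPKM in at least 3 libraries, using moderated tests with a variance trend. P-values were adjusted by Benjamini-Hochberg over all genes tested (threshold 0.05), and this scale shrinks the fold changes of low genes. Values after ± are SD over 3 mice, or SE where marked. The procedure was tested on simulated data. Alternatives were pseudocounts of 0.1 and 5, no filter or one of 5 FPKM, scaling to TPM, by quantiles or by median of ratios, a robust prior, array weights, no trend, and each library left out. For precursor supply genes these were added after seeing the data.

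Genes outside the member list were named if they were the most abundant tested gene of their list, or had a mean of at least 5 FPKM and no overlap, or were among the 3 nearest profiles to the most abundant member of a role. Of the genes this rule names, 1 is not reported here. Positions are from GENCODE M21 and promoter windows from RefSeq, which held 6 of 8 members.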

Additional observations from a re-analysis of the deposited data

How the results depend on the processing

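All 16 alternatives left the hyaluronan members called at 0. Has1 stayed higher and Has2 lower in Pdgfra-cre without overlap after scaling to TPM, by quantiles or by median of ratios. The remaining alternatives could not make their groups overlap, as they keep the order of a gene's values or only leave out a library. The log2 fold change ran from 0.30 to 0.48 for Has1 (adjusted p 0.207 to 0.498), from -0.55 to -0.30 for Has2 (0.340 to 0.714), from 0.28 to 0.71 for Tnfaip6 (0.131 to 0.737) and from 0.076 to 0.39 for Hyal2 (0.554 to 0.969). The median of the members was -0.018 after rescaling to TPM, 0.20 with array weights and 0.065 to 0.28 when 1 library was left out, the highest without Pdgfra-cre 23. That of the precursor supply genes was 0.26 after rescaling to TPM and 0.50 under a filter of 5 FPKM, where 6 were tested. It was 0.29 to 0.45 with 1 library left out. Precursor supply genes called stayed at 0. Those without overlap were 3 with quantile normalization and with TPM (beside 16.5% and 17.3% of all genes), and 6 at most, without floxed 9 (beside 28.5%).

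Hyal1, Vcan and Cd44, near 0, changed sign. Hyal1 was -0.0079 with a pseudocount of 0.1, -0.088 after rescaling to TPM and -0.18 to 0.34 with 1 library left out, below 0 without floxed 8 (-0.060), floxed 9 (-0.0085), Pdgfra-cre 13 (-0.18) or 25 (-0.15). Vcan was -0.018 after rescaling to TPM, -0.0096 without Pdgfra-cre 23 and 0.18 at most without 1 library. Cd44 was 0.026 without Pdgfra-cre 25 and -0.15 without 23, and its groups did not overlap after rescaling to TPM. That scaling moved the median of all genes to -0.090. The cause of these changes was not tested.

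Over all genes 0 passed in limma (1253 at an unadjusted p under 0.05), and 0 to 33 with 1 library left out: 33 without Pdgfra-cre 25, 3 without Pdgfra-cre 13 and 2 without floxed 43. No paired analysis was possible because the labels pair no floxed mouse with a Pdgfra-cre mouse. For Has3, at about 6.47 reads or fewer in each library, a difference was not detectable at this depth.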

Other observations

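The 2 most abundant hyaluronan genes lay at similar levels in each library, as did the receptor and the proteoglycan genes. The ratio of Tnfaip6 to Has1 FPKM was 0.873, 1.03 and 0.765 in floxed 8, 9 and 43, and 1.05, 1.06 and 0.694 in Pdgfra-cre 13, 23 and 25. Pdgfra-cre 25 was the lowest of the 6 libraries, and the other Pdgfra-cre libraries were the highest. The ratio of Cd44 to Vcan FPKM was 1.03 to 1.23 in floxed and 0.963 to 1.00 in Pdgfra-cre. The ratio of Tnfaip6 to Vcan FPKM was 22.7 to 25.5 in floxed and 26.5 to 36.8 in Pdgfra-cre. These ratios were formed after the values were seen and were not tested.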
